A study of Mus musculus with 6 samples.

Results

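The genes of MHC class II antigen presentation were examined in macrophages of mouse melanomas (tumor-associated macrophages, TAMs), taken from *Ptgs*-competent or *Ptgs*-deficient tumors. The set was chosen by symbol and held 9 genes, namely H2-Aa, H2-Ab1, H2-Eb1, H2-DMa, H2-DMb1, H2-DMb2, Cd74, Ciita and Ifi30. All 9 were rows of the table of 39179 genes, and all 9 were among the 8793 genes with enough counts to be tested. The 3 *Ptgs*-competent libraries came from tumors of a Braf-mutant melanoma line with intact Ptgs1 and Ptgs2, the genes for COX-1 and COX-2. The 3 *Ptgs*-deficient libraries came from tumors of the same line after both genes had been knocked out. Tumors grew under the skin of C57BL/6 hosts 8 weeks of age, and each library was made from macrophages of pooled tumors. The edit was in the tumor cells alone, and the macrophages of both groups carried the unedited genome of the host. Differences between the lines other than the knockout cannot be told apart from it. Live cells positive for CD45, CD11b and F4/80 were sorted, with NK1.1, Ly6G and high Ly6C gated out. MHC class II protein was not part of that gate.

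MHC class II molecules carry peptides from endosomes to the cell surface, where CD4 T cells read them. An alpha and a beta chain assemble in the endoplasmic reticulum around the invariant chain CD74, which blocks the groove and directs the complex to endosomes. There, proteases trim the invariant chain and H2-DM exchanges the remaining fragment for antigenic peptide. In macrophages, class II transcription depends on the coactivator CIITA, which interferon-γ induces and which acts through factors bound to short promoter elements called the X box and the Y box.

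The proximal promoter elements of the members are shown first, because they are the sequences through which CIITA acts on this family. RefSeq windows (GRCm38.p6) were held for 6 of the 9 members, and the 250 bases before each start were searched on both strands. The letters searched were AACNGATG for the X box core, ATTGG for the Y box core and TGACGTCA for the cyclic AMP response element (CRE). The X box and Y box cores stood together in H2-Eb1, H2-DMb1 and H2-DMb2. H2-Aa had the Y box core and the CRE. Only these exact letters were searched, so an X box or Y box with other letters would be missed, and no match does not mean no element. Capitals mark the match, and each line is written 5′ to 3′ on the strand of its gene.
H2-Eb1 X box, chr17:34305774-34305793, plus strand: tagcAACTGATGatgctgga
H2-DMb1 X box, chr17:34153095-34153114, plus strand: tagtAACTGATGatgctagg
H2-DMb2 X box, chr17:34145124-34145143, plus strand: tattAACCGATGatgctagg
H2-Eb1 Y box, chr17:34305804-34305820, plus strand: gctgATTGGctcccagc
H2-DMb1 Y box, chr17:34153126-34153142, plus strand: agtgATTGGtctgacct
H2-DMb2 Y box, chr17:34145155-34145171, plus strand: agtgATTGGactgactt
H2-Aa Y box, chr17:34287859-34287875, minus strand: tctgATTGGttctggcg
H2-Aa CRE, chr17:34287882-34287901, minus strand: acttTGACGTCAtcacaaga

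The X box core began 89 bases before the start of H2-Eb1, 92 before H2-DMb1 and 121 before H2-DMb2. The Y box core followed 30 bases on in H2-Eb1 and 31 bases on in both H2-DMb genes. H2-Eb1 also held ATTGG on the opposite strand 35 bases before its start. In H2-Aa the CRE lay 74 bases and the Y box core 48 bases before the start. No motif was found before the first start of H2-DMa or before Ifi30, and a Y box core lay 198 bases before the second start of H2-DMa. ATTGG alone was common and occurred in 33.8% of 32851 mouse windows of this length, whereas the X box core occurred in 1.98% and the CRE in 1.55%. An X box core with ATTGG starting 25 to 35 bases on was found in 6 windows (0.0183%), a spacing set after the members' sequences had been seen. Those 6 windows belonged to H2-Eb1, H2-DMb1, H2-DMb2, the class II gene H2-Eb2, BC051142 and Gm35697. In GENCODE M21 the gene H2-DMb1 begins at position 34153072, upstream of the RefSeq start at 34153191. The gene H2-DMb2 begins there at 34143307, upstream of its RefSeq start at 34145249. The matches of both H2-DMb genes thus fall inside the genes as annotated by GENCODE.

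The 6 H2 members lay together on chromosome 17 between positions 34119541 and 34316674 (GRCm38, whole genes by GENCODE M21). From the proximal end the order was H2-DMa (34119541 to 34139101), H2-DMb2 (34143307 to 34151555), H2-DMb1 (34153072 to 34160230), H2-Ab1 (34257689 to 34269419), H2-Aa (34282744 to 34287823) and H2-Eb1 (34305867 to 34316674). H2-Aa is on the minus strand and the other 5 are on the plus strand. Ciita was on chromosome 16 (10480059 to 10528418). H2-DMa overlapped 4 annotated genes, among them Brd2 on the opposite strand, and H2-Eb1 overlapped the antisense gene Gm20513. Ciita overlapped Dexi and Ifi30 overlapped 6330537M06Rik, both on the opposite strand, and Cd74 overlapped Mir5107 on the same strand. The strand setting of the counting was not stated, so reads of such partners may be included.

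Libraries held between 4431184 and 8760679 counts, each a read from the 3′ end of a transcript, so that levels do not scale with transcript length. *Ptgs*-competent replicate 3 stood apart from the other libraries. It had the fewest counts, only 26.2 CPM (counts scaled to the library total) of the macrophage gene Cd68 against 400 to 510 in the others, and 2796 CPM summed over 15 melanoma cell markers. That melanoma sum was 480 and 1143 CPM in the other competent libraries and 72.5 to 175 CPM in the deficient ones. The 4 lineage genes Sox10, Pmel, Tyrp1 and Dct in that list were at 0 in all libraries, and Mitf was higher in the deficient group, at a mean of 24.1 against 0.843 CPM. The sum was carried largely by Cald1, Crabp1, Hmga2 and Tm4sf1. The noncoding gene Gm26924 took 6.83% to 11.6% of counts in competent and 1.82% to 4.63% in deficient libraries, and mitochondrial genes took 1.72% to 6.79%, most in competent replicate 3, and 2.20% to 2.70%. Their part in the results was not tested. Fold changes of the members and of their sum are given with and without competent replicate 3. Ptgs1 and Ptgs2 are not edited in macrophages and do not check the labels here. Their mean levels were 64.8 and 54.7 CPM in the competent group and 29.96 and 27.3 CPM in the deficient group, with overlapping libraries.

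The summed level of class II transcripts was higher in every *Ptgs*-deficient library than in any competent one, but no single member passed the study's thresholds by the edgeR quasi-likelihood test, the main test used here. The classical class II chains H2-Aa, H2-Ab1 and H2-Eb1 were higher in every deficient library than in any competent library, as were H2-DMa and H2-DMb2. H2-DMb1, Cd74 and Ifi30 had higher means with overlapping libraries, and Ciita was detected irregularly in both groups. By the edgeR quasi-likelihood test with Benjamini-Hochberg adjustment, called at an adjusted p of 0.05 and a log2 fold change of 1.5, 0 of 9 members were called, against 0.216% of all genes tested. At an unadjusted p under 0.05, 4 of 9 were higher, against 5.00% of all genes. The edgeR likelihood ratio test and DESeq2 each called 1 member higher, H2-Aa in both, where 1.55% and 1.97% of all genes were called higher. Groups did not overlap for 5 of 9 members, all higher, against 11% of all genes. Estimates were higher in 8 of 9 members, against 50.7% of all genes, with a median log2 fold change of 0.99 over the members and 0.02 over all genes tested. These counts include H2-DMb2, which reached the minimum count in 1 of 3 competent and 3 of 3 deficient libraries and so entered the test through the group where it was high. Without it, 4 of 8 did not overlap, 7 of 8 estimates were higher and the median was 0.81. The members share libraries, and they are not independent observations.

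**Figure D1:**
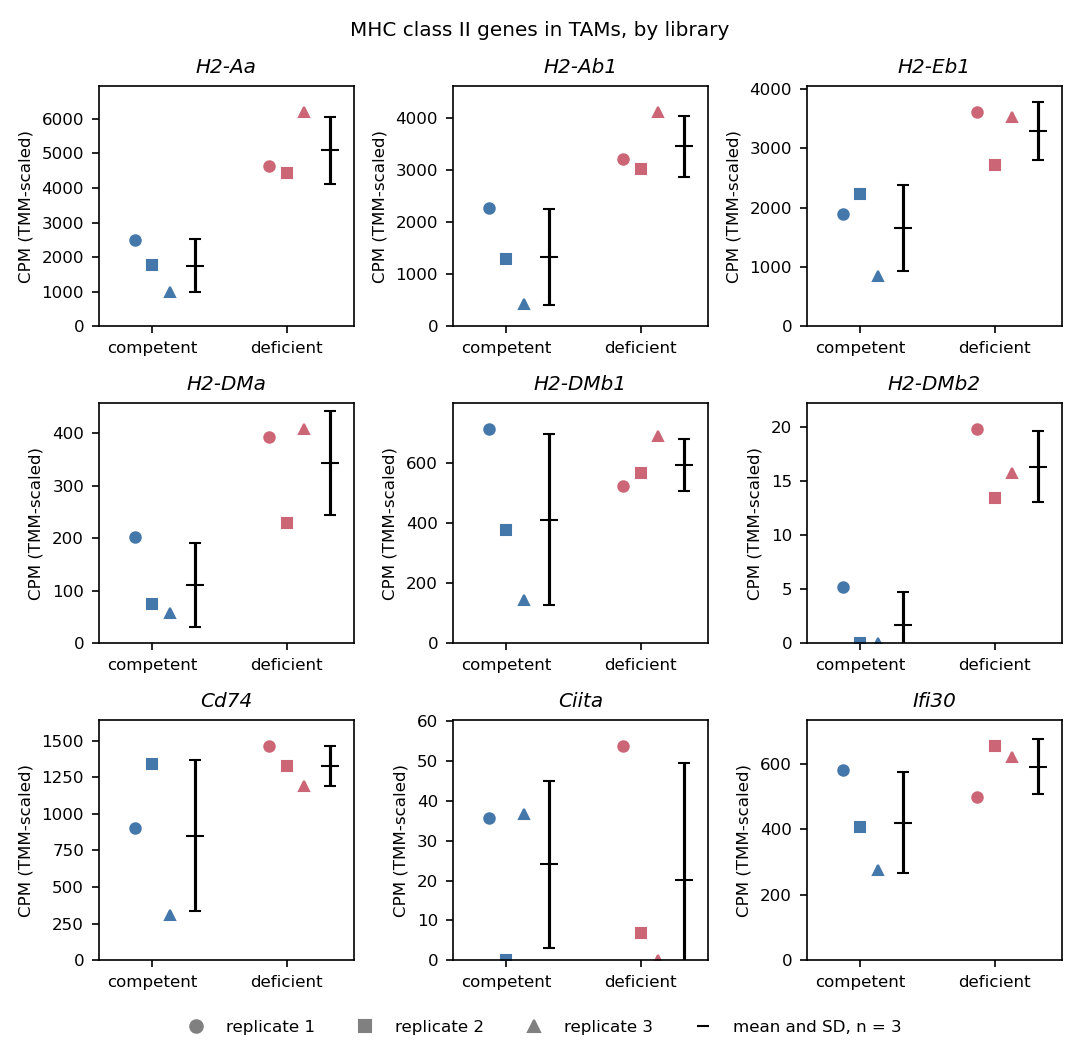
Level of each of the 9 MHC class II genes in CPM (TMM-scaled, linear axis from 0) in the 3 libraries of each group, with the mean and SD beside them. All 3 deficient libraries lie above all 3 competent libraries for H2-Aa, H2-Ab1, H2-Eb1, H2-DMa and H2-DMb2, while H2-DMb1, Cd74, Ciita and Ifi30 overlap.

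H2-Aa encodes the alpha chain of I-A, the class II molecule that C57BL/6 mice display. It was read 15907, 10880 and 4617 times in competent replicates 1, 2 and 3, and 25722, 37627 and 30341 times in the deficient ones. Scaled by TMM, the levels were 2506, 1765 and 984 CPM against 4639, 4429 and 6206 CPM. The lowest deficient library thus lay well above the highest competent one. The means were 1752 ± 761 and 5091 ± 971 CPM (SD, n = 3 each). The log2 fold change was 1.54 ± 0.39 (SE, 95% interval 0.68 to 2.40), with an unadjusted edgeR p of 0.0025 and an adjusted p of 0.187. The adjusted p was 0.031 by the edgeR likelihood ratio test and 0.00025 by DESeq2. Without competent replicate 3 the log2 fold change was 1.30, and p stayed under 0.05 in 6 of 6 fits that left out 1 library.

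H2-Ab1 encodes the beta chain that pairs with H2-Aa. Its levels were 2280, 1294 and 432 CPM in competent and 3219, 3023 and 4117 CPM in deficient libraries. Competent libraries spanned a wide range and the deficient ones a narrow range above it. The means were 1335 ± 925 and 3453 ± 583 CPM, and the log2 fold change was 1.37 ± 0.51 (95% interval 0.23 to 2.51, edgeR adjusted p = 0.384). It was 0.99 without competent replicate 3 and 2.004 without competent replicate 1, and 4 of 6 fits that left out 1 library kept p under 0.05.

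H2-Eb1 encodes the beta chain of the second class II molecule, I-E. C57BL/6 mice lack I-E at the surface because the gene for its alpha chain is defective, and the row for that gene, H2-Ea-ps, held 0 counts in all 6 libraries. H2-Eb1 itself was abundant, at 1900, 2236 and 846 CPM in competent and 3619, 2726 and 3525 CPM in deficient libraries. The deficient libraries were again all above the competent ones, by a smaller margin than for H2-Aa. The log2 fold change was 0.99 ± 0.39 (95% interval 0.13 to 1.84, edgeR adjusted p = 0.430) and 0.72 without competent replicate 3. Of 6 fits that left out 1 library, 4 kept p under 0.05.

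H2-DMa encodes the alpha chain of H2-DM, the endosomal exchange factor. Its counts were 1288, 459 and 270 in competent and 2177, 1944 and 1994 in deficient libraries. On the CPM scale these were 203, 74.5 and 57.5 against 393, 229 and 408. The highest competent library and the lowest deficient library were close. The log2 fold change was 1.62 ± 0.52 (95% interval 0.46 to 2.78, edgeR adjusted p = 0.315), the highest of the members with at least 100 counts in every library. It was 1.35 without competent replicate 3 and 2.38 without competent replicate 1, and p was under 0.05 in 6 of 6 fits that left out 1 library.

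The beta chain of H2-DM has 2 genes in the mouse, of which H2-DMb1 overlapped between groups and H2-DMb2 did not. H2-DMb1, the abundant one, stood at 713, 376 and 146 CPM in competent and 522, 565 and 689 CPM in deficient libraries. Competent replicate 1 was the highest of all 6. The means of 412 ± 285 and 592 ± 86.8 CPM gave a log2 fold change of 0.52 ± 0.50 (95% interval -0.58 to 1.63), or 0.16 without competent replicate 3 and 1.18 without competent replicate 1. H2-DMb2 was rare, with 33, 0 and 0 counts in competent and 110, 114 and 77 counts in deficient libraries. It was thus found in 1 of 3 competent and in 3 of 3 deficient libraries. Its log2 fold change was 3.22 ± 2.69 (95% interval -2.77 to 9.20), or 2.67 without competent replicate 3, so that the fit did not resolve its size. Main GENCODE transcripts of the H2-DMb genes were 90.8% identical in sequence, but 67.7% over the last 400 bases, where 3′ reads fall. Of 326 stretches of 75 bases at the end of H2-DMb1, 2 occurred in H2-DMb2.

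Cd74 is the invariant chain. The gene lies on chromosome 18 (60803848 to 60812652). Its levels were 901, 1338 and 312 CPM in competent and 1464, 1326 and 1192 CPM in deficient libraries. Competent replicate 2 was level with the deficient group, and replicate 3 was far below it. The means were 850 ± 515 and 1327 ± 136 CPM, with a log2 fold change of 0.64 ± 0.46 (95% interval -0.38 to 1.66), or 0.30 without competent replicate 3 and 1.13 without competent replicate 2. At this spread neither equality nor a rise to the extent of H2-Aa lies outside the interval.

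Ifi30, on chromosome 8 (70762774 to 70766663), encodes GILT, an interferon-inducible thiol reductase that unfolds antigen in endosomes. Levels were 582, 407 and 275 CPM in competent and 498, 656 and 622 CPM in deficient libraries. Competent replicate 1 lay among the deficient libraries. The means of 421 ± 154 and 592 ± 83.0 CPM gave a log2 fold change of 0.49 ± 0.35 (95% interval -0.29 to 1.27), or 0.31 without competent replicate 3 and 0.80 without competent replicate 1.

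**Figure D2:**
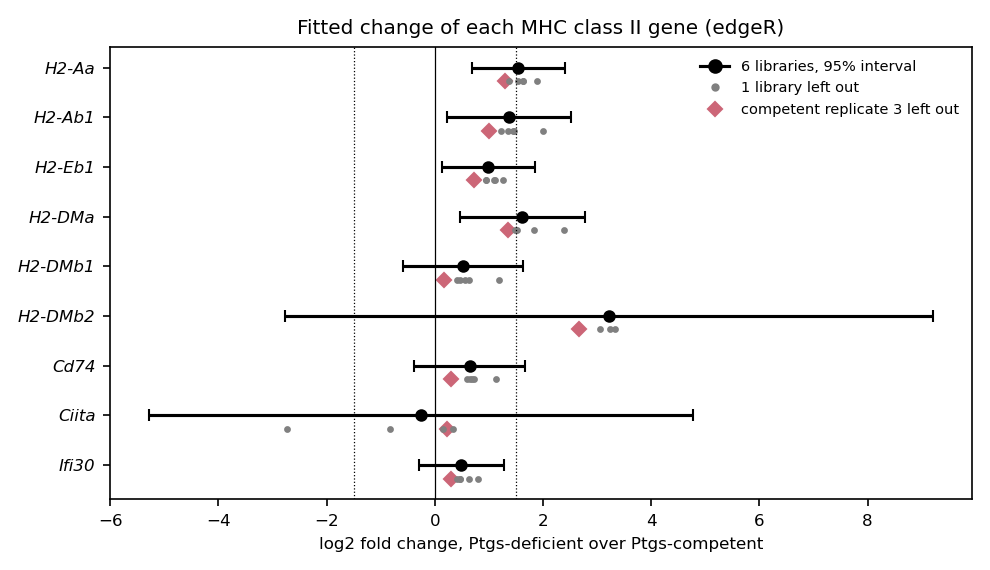
Log2 fold change of each member, *Ptgs*-deficient over *Ptgs*-competent, by edgeR. Black points and bars are the estimate and its 95% interval from 6 libraries, grey points leave out 1 library each, red diamonds leave out competent replicate 3, and dotted lines mark 1.5 in either direction. Intervals of H2-Aa, H2-Ab1, H2-Eb1 and H2-DMa lie above 0, and the diamond is the lowest value for each of these 4. The fit of H2-DMb2 without competent replicate 1 is not drawn because its competent group is then at 0.

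Ciita, the class II coactivator, was too irregular to compare. It held 226, 0 and 172 counts in competent and 298, 59 and 0 counts in deficient libraries. In each group 1 library had none, which at this depth allows up to 3 counts, or 0.490 CPM in competent replicate 2 and 0.587 CPM in deficient replicate 3 before TMM scaling. Deficient replicate 3 had the highest H2-Aa level of all libraries and 0 Ciita counts. The log2 fold change was -0.25 ± 2.26 (95% interval -5.28 to 4.77), or 0.22 without competent replicate 3, and its sign turned in 5 of 15 alternative analyses.

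The factors that recruit CIITA to the X and Y boxes showed no common direction. Of 7 genes listed, 6 were tested, with 3 estimates higher, 3 lower and 0 at an unadjusted p under 0.05. Rfxank, a subunit of the X box factor RFX, was at 3.94, 4.22 and 0 CPM in competent and 12.99, 12.01 and 12.07 CPM in deficient libraries, which did not overlap (log2 fold change 2.17 ± 2.38). Rfx5, the DNA-binding subunit, had 52, 217 and 0 counts in competent libraries and 0 in all 3 deficient ones, and was not tested. The Y box factor NF-Y had estimates of 1.39 ± 2.02 for Nfya, -1.79 ± 2.19 for Nfyb and -2.37 ± 2.56 for Nfyc. Each of these genes had a library at 0 or 1 count, and their intervals all include 0. Leaving out 1 library at a time gave 0.66 to 4.16 for Nfya, -4.12 to -0.69 for Nfyb and -3.39 to -1.70 for Nfyc.

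Of 10 genes that lead from interferon-γ to Ciita, 6 had higher and 4 lower estimates. Irf1, a transcription factor that acts on the Ciita promoter, was higher at an unadjusted p of 0.027, the only one of the 10 under 0.05 (edgeR adjusted p = 0.412). It stood at 51.7, 177 and 58.8 CPM in competent and 369, 273 and 152 CPM in deficient libraries, where 1 competent library exceeded 1 deficient library. Its log2 fold change was 1.46 ± 0.56, or 1.27 without competent replicate 3 and 2.26 without competent replicate 2. Ifngr2, a chain of the interferon-γ receptor, was estimated at 0.93 ± 1.02 and the kinase gene Jak2 at 1.45 ± 1.88. Leaving out 1 library at a time gave 0.43 to 1.97 for Ifngr2, the lowest without competent replicate 3 and the highest without competent replicate 1, and 0.88 to 4.93 for Jak2. Ifng itself had 0 to 2 counts in each library.

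Summed over the 9 members, the level was 9125, 7491 and 3088 CPM in competent and 14428, 12973 and 16774 CPM in deficient libraries. Class II transcripts made up 0.875%, 0.753% and 0.327% of all counts in the former and 1.52%, 1.26% and 1.60% in the latter. The mean sum was 2.24 times as high in the deficient group, and 1.77 times without competent replicate 3. Macrophage genes were higher as well. The summed level of 11 macrophage markers was 17170, 18222 and 6511 CPM in competent and 21751, 21308 and 25554 CPM in deficient libraries, a mean ratio of 1.64, or 1.29 without competent replicate 3. Of these 11 markers 10 had higher estimates, 5 at an unadjusted p under 0.05, and 0 were called. The shares over all genes tested were 50.7%, 5.00% and 0.216%. In bulk RNA, more macrophages per sample and more RNA per macrophage cannot be told apart.

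Divided by the macrophage sum of the same library, the class II sum was 0.531, 0.411 and 0.474 in competent and 0.663, 0.609 and 0.656 in deficient libraries. The groups did not overlap, and the ratio of means was 1.36 with and without competent replicate 3. This division, chosen after the data were seen, split the members. H2-Aa was 1.69 times and H2-Ab1 1.67 times as high per macrophage sum, without overlap. H2-DMa, at 1.81 times, and H2-Eb1, at 1.19 times, overlapped. Cd74 was level at 1.01, H2-DMb1 stood at 0.916 and Ifi30 at 0.793. The rare H2-DMb2 was 7.13 times as high without overlap, or 4.75 times without competent replicate 3, and Ciita stood at 0.363, or 0.899 without that library, with overlap. The part of the genes in the melanoma list and of macrophage content in the class II difference was not tested.

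**Figure D3:**
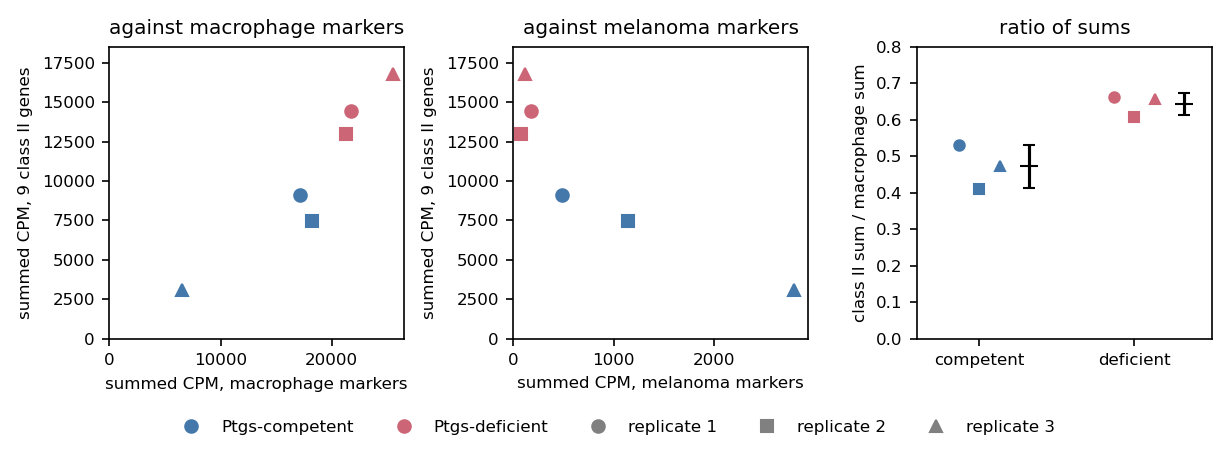
Summed CPM of the 9 class II genes against the summed CPM of 11 macrophage markers (left) and of 15 melanoma markers (middle) in each library, and the class II sum divided by the macrophage sum (right, with mean and SD, n = 3). Competent replicate 3 has the lowest macrophage sum (6511 CPM) and the highest melanoma sum (2796 CPM), and its ratio of 0.474 lies between those of the other competent libraries.

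Ratios of counts within a library do not depend on its scaling or on its share of macrophages, as long as both genes come from the same cells. The I-A chains kept a narrow ratio in the deficient group, where H2-Aa over H2-Ab1 was 1.44, 1.46 and 1.51. In the competent group it was 1.10, 1.36 and 2.28, which spanned the deficient values. H2-DMa over H2-DMb1 was 0.284, 0.198 and 0.395 in competent and 0.753, 0.405 and 0.592 in deficient libraries. Each deficient library was above each competent one, though 0.395 and 0.405 nearly met. H2-DMb1 over H2-Ab1 was 0.313, 0.291 and 0.338 in competent and 0.162, 0.187 and 0.167 in deficient libraries. This was the clearest separation, with means of 0.314 ± 0.023 and 0.172 ± 0.013 and a ratio of means of 0.548, or 0.570 without competent replicate 3. Ifi30 over H2-Ab1 was 0.255, 0.315 and 0.637 against 0.155, 0.217 and 0.151, with a ratio of means of 0.433, or 0.612 without competent replicate 3. Cd74 over the sum of the I-A chains was 0.188, 0.438 and 0.220 against 0.186, 0.178 and 0.115, so that competent replicate 1 and deficient replicate 1 were almost equal. These ratios were picked from the values of the members, and no test was run on them.

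**Figure D4:**
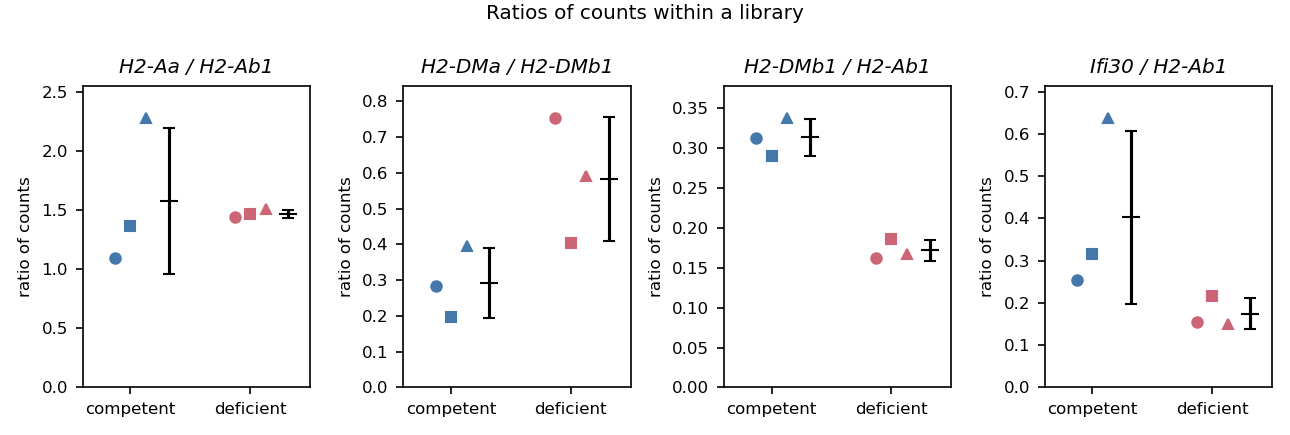
Ratios of counts between members within each library, with the mean and SD (n = 3) beside the points. H2-DMa over H2-DMb1 is higher, and H2-DMb1 and Ifi30 over H2-Ab1 are lower, in all 3 deficient libraries than in any competent library, while H2-Aa over H2-Ab1 overlaps.

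As a share of all class II counts, H2-Aa made up 27.6 ± 4.2% in competent and 34.4 ± 2.4% in deficient libraries, without overlap. The ratio of these shares was 1.25, or 1.35 without competent replicate 3. H2-Ab1 made up 18.7% and 23.4% and H2-Eb1 26.0% and 22.4%, both with overlap. In deficient libraries the order H2-Aa, H2-Ab1, H2-Eb1, Cd74 held by mean level, and H2-Ab1 and H2-Eb1 differed by less than their spread. H2-DMb1 and Ifi30 shared a mean of 592 CPM, above H2-DMa at 343 CPM. In competent libraries H2-Aa, H2-Eb1 and H2-Ab1, at 1752, 1661 and 1335 CPM, differed by less than their spread.

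Genes of endosomal processing had higher estimates throughout, like the class II chains. All 9 genes listed had higher estimates, 5 of them at an unadjusted p under 0.05 and without overlap between groups, and 0 were called by the edgeR quasi-likelihood test. Cst3, which encodes cystatin C, an inhibitor of cysteine cathepsins, showed the widest difference. It stood at 723, 470 and 358 CPM in competent and 1283, 3012 and 2680 CPM in deficient libraries (log2 fold change 2.17 ± 0.42, edgeR adjusted p = 0.081). The likelihood ratio test of edgeR called it at an adjusted p of 0.0017. Ctss, encoding cathepsin S, the protease that makes the last cuts in the invariant chain, was at 2742, 1932 and 1002 against 3815, 4003 and 5131 CPM. Its log2 fold change was 1.19 ± 0.39 (edgeR adjusted p = 0.327). Estimates were 1.14 ± 0.37 for the cathepsin B gene Ctsb and 0.83 ± 0.35 for Lgmn, which encodes asparaginyl endopeptidase. The fifth was Sppl2a, the protease for the final membrane stub of CD74, at 1.53 ± 0.65. Without competent replicate 3 the estimates were 2.01 for Cst3, 0.93 for Ctss, 0.93 for Ctsb and 0.69 for Lgmn.

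Among genes that set the turnover of surface class II, Cd83 separated most clearly. CD83 counteracts the ubiquitin ligase MARCH1, which marks class II for degradation. Cd83 was at 32.1, 71.4 and 60.9 CPM in competent and 336, 275 and 392 CPM in deficient libraries. Its log2 fold change was 2.61 ± 0.43, or 2.75 without competent replicate 3. The edgeR adjusted p was 0.055 by the quasi-likelihood and 0.00051 by the likelihood ratio test. The gene for MARCH1 was at 52.9, 26.0 and 82.5 against 17.1, 41.1 and 2.45 CPM, which overlapped (-1.41 ± 1.17). That estimate was -2.45 without deficient replicate 2, -0.91 without competent replicate 3 and -0.88 without deficient replicate 3. That for its relative MARCH8 was at 1.89, 19.1 and 10.01 against 17.3, 130 and 52.8 CPM, which also overlapped. Its estimate was 2.69 ± 1.21 (edgeR adjusted p = 0.570), or 1.76 without deficient replicate 2 and 3.50 without competent replicate 2, and Ube2d1, a ubiquitin-conjugating enzyme, was estimated at 1.80 ± 2.49.

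Costimulatory genes, whose products act beside class II on T cells, showed no common direction, with 2 of 4 estimates higher and 2 lower. Cd40, the receptor for CD40 ligand, was at 12.4, 0 and 11.9 CPM in competent and 48.5, 65.7 and 136 CPM in deficient libraries (log2 fold change 3.36 ± 1.46, edgeR adjusted p = 0.528), and was the only one with an unadjusted p under 0.05. Cd86 was estimated at 0.40 ± 0.90, Cd80 at -0.42 ± 1.99 and Icosl at -1.39 ± 2.67. When 1 library was left out, Icosl ranged from -3.12 without deficient replicate 2 to -0.77 without deficient replicate 1. The signs of Cd86 and Cd80 each turned in 1 of 15 alternatives.

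Dendritic cells and B cells also carry class II, so their markers were read in the same libraries. Of 13 conventional dendritic cell markers, 4 (Zbtb46, Xcr1, Itgae and Ccr7) were at 0 in all 6 libraries, Flt3 had 35 counts in competent replicate 1 alone, and Clec9a had 54 in deficient replicate 2 alone. The summed level of the 13 was 181 to 356 CPM in competent and 152 to 269 CPM in deficient libraries. It was carried largely by Itgax in the former and by Batf3 and Itgax in the latter. These 2 genes differed in opposite directions, so the sum does not describe the other markers. Within that list Batf3, a transcription factor, rose from 0, 0 and 1 counts to 586, 634 and 424 and was called (edgeR adjusted p = 0.032). Itgax, the gene for CD11c, was lower, at 340, 165 and 139 CPM against 132, 55.8 and 62.0 CPM (edgeR adjusted p = 0.406). Of 10 B cell markers 7 were at 0 throughout, among them Ms4a1, Cd79a and Pax5. Ighm was at 0 in the competent libraries and had 82, 137 and 433 counts in the deficient ones, and the B cell sum was 0 to 26.4 CPM and 14.8 to 105 CPM. Of the other class II genes, H2-Eb2 and H2-Oa were at 0 in all libraries, and H2-Ob, expressed in B cells, had 44, 0 and 2 counts in the deficient libraries alone. The part of dendritic cells and B cells in the class II levels was not tested.

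The 7 monocyte markers summed to 1478 to 2370 CPM in the deficient and 261 to 539 CPM in the competent group, a sum carried largely by Plac8 and Ccr2. Groups overlapped for 4 of the 7 (Chil3, Ace, Hp and Spn). Ccr2, the receptor that brings monocytes into tissue, was at 382, 236 and 113 CPM in competent and 741, 855 and 898 CPM in deficient libraries. Plac8 was the 1 of 7 monocyte markers that was called, against 0.216% of all genes (log2 fold change 3.20 ± 0.42, edgeR adjusted p = 0.023). Neutrophil markers summed to 612.5 to 716 CPM in competent and 446 to 525 CPM in deficient libraries. S100a8 and S100a9 were lower without overlap, while Retnlg was higher without overlap, at 20.01, 59.2 and 16.0 against 122, 112 and 178 CPM. T and NK cell markers reached at most 29.0 CPM, with 6 of 12 at 0 throughout. The part of monocytes in the class II levels was not tested.

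The genes most like the class II sum were found by Pearson correlation of log2 CPM over the 6 libraries, among 2953 genes with a mean of at least 50 CPM. C1qc, a chain of complement C1q made by macrophages, came first with r = 0.997, followed by Apoe, the apolipoprotein E gene, at 0.995. Ptplad2, Dusp1 and Gtf3c6 followed at 0.994, 0.994 and 0.993. C1qc was at a mean of 1038 CPM in competent and 2423 CPM in deficient libraries (log2 fold change 1.22). With each group centred on its own mean, r was 0.982 to 0.998 for these 5 genes. The 6 points share competent replicate 3 as their lowest, and the correlations describe these libraries only.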

How the data were processed

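TAMs were profiled by 3′ mRNA sequencing (QuantSeq FWD, 800 pg of RNA, no molecular identifiers stated). The authors trimmed the reads, aligned them with STAR to GRCm38 and deposited raw counts per Ensembl gene made with featureCounts. Gene models were those of Ensembl for GRCm38. Tool versions and the strand setting are not given in the sources used here. From these counts, genes were kept by filterByExpr (minimum count 10, minimum total 15), scaled by TMM and tested with edgeR 4.0.16 (quasi-likelihood, two-sided, Benjamini-Hochberg) in R 4.3.3, without covariates. Genes were called at FDR 0.05 and a log2 fold change of 1.5, the study's thresholds. Alternatives used limma 3.58.1 and DESeq2 1.42.0, other scalings and filters, a replicate block and 6 fits that left out 1 library each. The code was tested on simulated data. CPM are TMM-scaled, and log2 CPM for likeness used a prior count of 2. Motifs were searched in Python 3.11.15.

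All 9 members are named, with up to 4 genes of each pathway list by smallest p, every called list gene, and the 5 genes most alike. Marker genes, untested genes, Sppl2a and ratios were named after their values were seen. Members and lists were chosen with earlier results of these data known. Libraries are separate pools by their labels, but separate cultures or cohorts are not stated, so p-values measure only the spread between these libraries. Depth was 4431184 to 8760679 counts, a floor of 3 counts corresponds to 0.342 to 0.677 CPM, and such floors cover counting error only. The symbols of both MARCH genes had been turned into dates in the deposited table and were read by Ensembl identifier. Adgre1, Fcmr, Chil3 and Cavin2 appear there under older symbols. Some listed genes are counted but not reported here by name.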

Additional observations from a re-analysis of the deposited data

How the results depend on the processing

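Over 15 alternatives the estimates stayed above 0 for all members other than Ciita, at 1.30 to 1.89 for H2-Aa, 0.99 to 2.004 for H2-Ab1, 0.72 to 1.26 for H2-Eb1, 1.35 to 2.38 for H2-DMa, 0.16 to 1.18 for H2-DMb1, 0.30 to 1.13 for Cd74 and 0.31 to 0.80 for Ifi30. H2-DMb2 was 2.64 at its lowest and 6.97 with a replicate block, and no value is given without competent replicate 1, where its competent group is at 0. Ciita turned to 0.50 with a replicate block and ranged from -2.74 to 0.33 when 1 library was left out. Over those fits Cd86 ranged from -0.050 to 1.49 and Cd80 from -1.52 to 0.054. The count of members called, 0 by the main test, was 1 by the likelihood ratio test, 1 by DESeq2 and 1 by limma voom with quality weights (H2-Aa each time), and 2 when every gene with at least 1 count was tested (H2-Aa and H2-DMa). It was 0 in each fit without 1 library. Members at an unadjusted p under 0.05 numbered 4 in the main test and 2 to 6 when 1 library was left out, the 2 without deficient replicate 3 and the 6 without competent replicate 1. Over all genes 19 were called by the main test, 252 with at least 1 count, 241 by the likelihood ratio test, 328 by DESeq2 and 123 by limma voom, which also shifted the median of all genes by 0.38 against the main test. Leaving out 1 library gave 0 to 25 called genes. The 0 came without competent replicate 1, where edgeR still had 1231 genes at an unadjusted p under 0.05, and other tools were not run on that subset. The count was 11 without competent replicate 2 and 2, 4 and 3 without deficient replicates 1, 2 and 3. The log2 ratio of the summed members was 1.16, ranged from 0.83 to 1.48 without 1 library, and was 0.44 when divided by the macrophage marker sum, an alternative added after seeing the data. Same-numbered libraries did not deviate together over all genes tested (r = -0.049, -0.022 and -0.022). Libraries of different numbers reached at most r = 0.045. These values show no pairing by number, but with so few libraries per group they cannot settle whether there was one. With the replicate block 77 genes and 0 members were called, 4 members had an unadjusted p under 0.05, and the median of all genes shifted by 0.25. Outside the members the block brought Cd83 (log2 fold change 2.67, edgeR adjusted p = 0.013) and Cst3 (2.16, edgeR adjusted p = 0.035) past the threshold. The causes of these differences were not tested.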
